A study of Mus musculus with 12 samples.

Results

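The class II antigen presentation genes are described here across adipocytes made in culture and fat tissue. The 6 members, H2-Aa, H2-Ab1, H2-Eb1, H2-DMa, Cd74 and Ciita, were chosen by name, out of 19938 genes measured on the arrays. Class II molecules are cell surface proteins of an alpha and a beta chain that show peptides from engulfed proteins to CD4+ T cells. The chains are assembled with the invariant chain, loaded with peptide in endosomes with the help of H2-DM, and switched on at the gene level by the coactivator CIITA. They are best known in dendritic cells, B cells and macrophages, which are cells that fat tissue holds beside its adipocytes, and other cell types can make them after interferon gamma.

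Affymetrix arrays had been run on total RNA of 12 samples, as biological triplicates in 4 groups. ES adipocytes were differentiated from mouse embryonic stem cells, PMEF adipocytes from primary mouse embryonic fibroblasts, and 3T3-L1 adipocytes from the fibroblast line of that name, which is immortal and of mouse origin. The fourth group, eWAT, which commonly stands for epididymal white fat, was whole tissue from healthy wild-type mice. The labels used here give no strain, age, sex, day of differentiation or treatment, and name no genetic change in any group. Each culture was grown from the starting cells named above, which need not give 1 pure cell type. Whole tissue also holds vessels and white blood cells. A lower value in culture can thus come from fewer cells of a type or from less RNA per cell, which cannot be told apart in bulk RNA.

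Values are log2 intensities as deposited, so a difference of 1 is a 2-fold difference. Array medians over all probe sets lay between 5.84 and 5.98, and correlations across probe sets were 0.989 to 0.994 within groups and 0.920 to 0.968 between groups. The fat cell label was checked with 8 adipocyte markers. Adipoq, which encodes the hormone adiponectin, was high in every group but called lower in each culture, at 12.17 to 12.26 in ES, 11.94 to 12.08 in PMEF, 11.44 to 11.60 in 3T3-L1 adipocytes and 12.42 to 12.47 in eWAT. Of the 8 markers 4 fell and 1 rose in ES adipocytes, 7 fell in PMEF and 6 fell in 3T3-L1 adipocytes (median log2 differences of -0.20, -0.64 and -1.03). In 3T3-L1 adipocytes the factor gene Cebpa was at 7.45 to 7.69 against 10.26 to 10.56 in eWAT, and the hormone gene Lep was at 4.10 to 4.81 against 9.96 to 11.14, with no 3T3-L1 array above the background level defined next. No detection calls were used. As a description of background, the 95th percentile of 1179 odorant and vomeronasal receptor genes, which fat is not known to use, was taken on each array and lay between 5.04 and 5.36. Probe sets differ in affinity, so this level is a rough guide, and intensities are not compared between genes. The word called marks a difference with a Benjamini-Hochberg adjusted p under 0.05 over all 19938 genes in limma, and rose and fell are kept for called differences.

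Class II promoters are known for a conserved pair of elements, the X box, bound by the RFX complex, and the Y box, which holds the reversed CCAAT letters ATTGG bound by NF-Y. CIITA is recruited by the factors bound there. The RefSeq promoter table of GRCm38.p6 held windows of H2-Aa, H2-Eb1 and H2-DMa among the members. The 250 bases before the start of H2-Aa (chr17:34287824-34288073, minus strand) and of H2-Eb1 (chr17:34305617-34305866, plus strand) are shown because both genes are far lower in culture. Those of H2-Eb2 (chr17:34325425-34325674, plus strand), a class II gene outside the member list, are shown because it holds the same letters and was low in every group. They are printed 5′ to 3′ on the strand of the gene. Capitals mark ATTGG and ACNGATG, letters found at the end of some X boxes, on either strand (CCAAT and CATCNGT on the printed strand).
H2-Aa: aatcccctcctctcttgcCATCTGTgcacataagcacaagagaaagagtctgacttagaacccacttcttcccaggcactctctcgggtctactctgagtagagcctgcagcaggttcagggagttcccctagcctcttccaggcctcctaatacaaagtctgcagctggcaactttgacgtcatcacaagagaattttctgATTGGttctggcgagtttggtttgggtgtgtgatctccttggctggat
H2-Eb1: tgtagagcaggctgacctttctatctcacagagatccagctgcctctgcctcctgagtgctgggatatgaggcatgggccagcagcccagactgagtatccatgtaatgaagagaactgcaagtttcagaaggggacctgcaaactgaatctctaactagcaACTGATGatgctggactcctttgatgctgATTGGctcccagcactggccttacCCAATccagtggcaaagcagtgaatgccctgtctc
H2-Eb2: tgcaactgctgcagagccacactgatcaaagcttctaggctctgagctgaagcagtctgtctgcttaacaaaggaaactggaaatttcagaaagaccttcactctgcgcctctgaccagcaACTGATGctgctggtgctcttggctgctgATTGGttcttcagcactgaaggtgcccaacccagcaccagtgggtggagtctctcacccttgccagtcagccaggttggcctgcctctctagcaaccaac

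In H2-Eb1 the letters ACNGATG stood at -88 to -82 and ATTGG at -59 to -55, counted back from -1 just before the start, with a reversed copy of ATTGG at -35 to -31. In H2-Eb2 they stood at -129 to -123 and at -100 to -96. H2-Aa had ATTGG at -48 to -44. Its ACNGATG letters, at -232 to -226 on the opposite strand, need not be part of an X box. Over 32841 promoter windows of the same length (250 bases before to 50 after a start), 37.4% held ATTGG on either strand, 9.85% held ACNGATG, and 0.225% held ACNGATG followed on the same strand by ATTGG with 10 to 40 bases between. H2-Eb1, H2-Eb2, H2-DMb1 and H2-DMb2 held the pair. H2-Aa, H2-Oa and H2-Ob did not hold the pair in this window, nor did either of the 2 windows of H2-DMa. An X box with other letters is missed by this search, and these matches are descriptions of letters only.

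All 6 class II members fell in each kind of cultured adipocyte against eWAT, and no array of a culture overlapped with an eWAT array for any of them. Over all genes tested, the percentage called lower was 20.9% in ES, 21.6% in PMEF and 22.5% in 3T3-L1 adipocytes. Of the 19938 genes, 4854 in ES, 4732 in PMEF and 4971 in 3T3-L1 adipocytes had all culture arrays under all eWAT arrays. The median log2 difference of the members was -4.79 in ES, -5.27 in PMEF and -4.51 in 3T3-L1 adipocytes, beside medians over all genes of 0.04, 0.05 and 0.05. The comparisons share the eWAT arrays, and their values are given side by side. The plot of the members by array shows the gap for each gene.

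**Figure D1:**
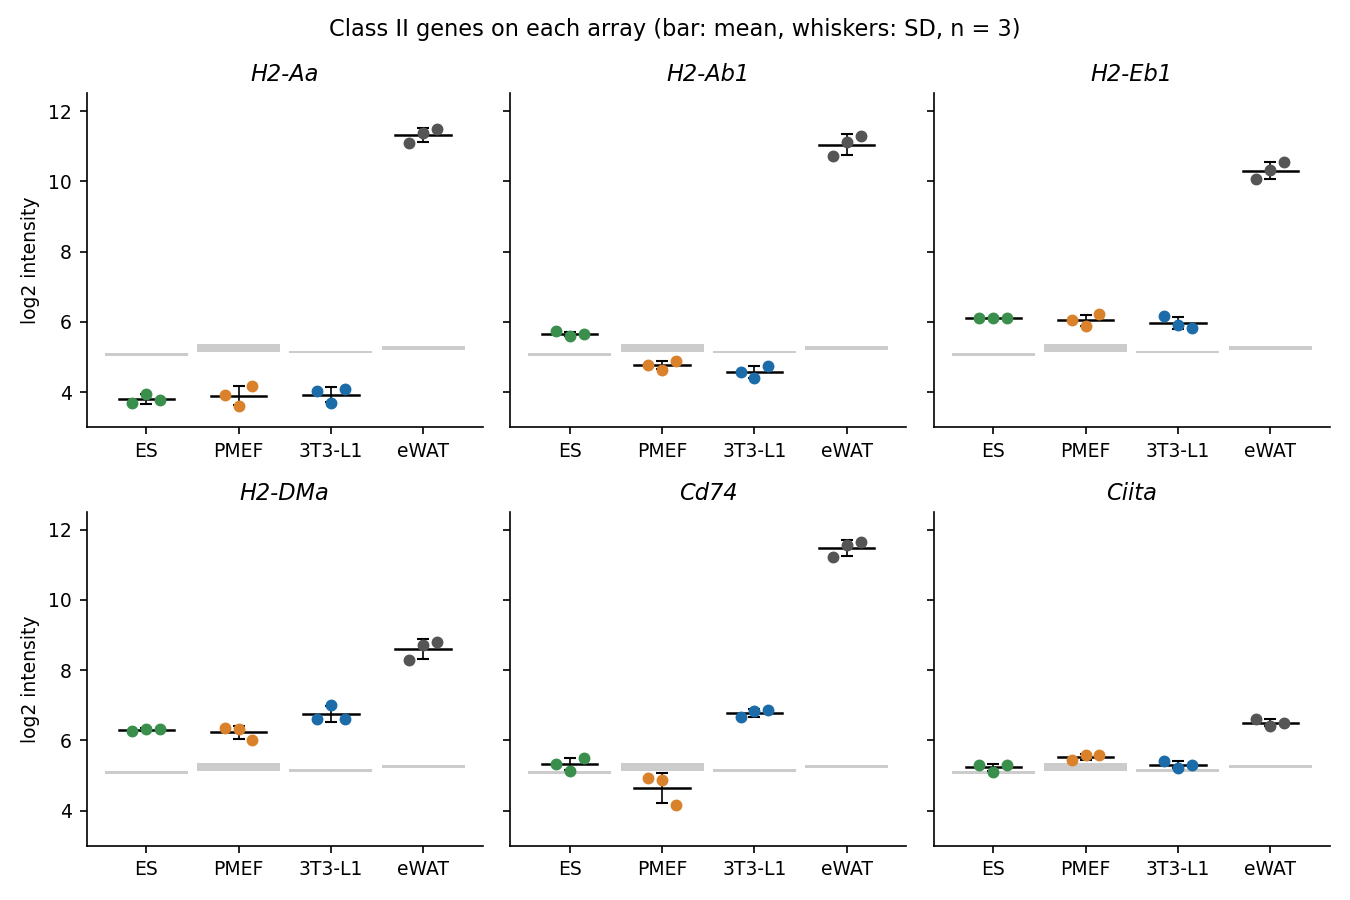
Log2 intensity of the 6 class II genes on each of 12 arrays (points), with the mean and SD of 3 arrays per group (black) and the range of the receptor background level in each group (grey band). H2-Aa lies under the band in every culture and between 11.10 and 11.49 in eWAT, while H2-DMa and H2-Eb1 lie above the band in every group.

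H2-Aa encodes the alpha chain of the class II molecule I-A. It was at 3.69, 3.95 and 3.77 in ES, at 3.93, 3.61 and 4.16 in PMEF and at 4.02, 3.69 and 4.08 in 3T3-L1 adipocytes, against 11.10, 11.37 and 11.49 in eWAT. All 9 culture arrays lay close together and under the receptor background level, far from the tissue arrays. The log2 difference from eWAT was -7.52 ± 0.15 in ES, -7.42 ± 0.15 in PMEF and -7.39 ± 0.15 in 3T3-L1 adipocytes (moderated SE, n = 3 per group), with limma adjusted p of 9.15e-13, 3.95e-13 and 1.21e-13. Because the culture values are not above background, the fold is better read as a bound, and with the background level in their place H2-Aa was at least 75.2-fold lower in ES, 67.5-fold lower in PMEF and 72.1-fold lower in 3T3-L1 adipocytes.

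H2-Ab1 encodes the beta chain that pairs with H2-Aa. It was at 5.73, 5.60 and 5.64 in ES, at 4.77, 4.64 and 4.88 in PMEF and at 4.56, 4.39 and 4.74 in 3T3-L1 adipocytes, against 10.72, 11.12 and 11.30 in eWAT. ES arrays were the highest among the cultures and the only ones above the receptor background level. The log2 difference from eWAT was -5.39 ± 0.13 in ES, -6.28 ± 0.13 in PMEF and -6.48 ± 0.13 in 3T3-L1 adipocytes (limma adjusted p of 4e-12, 5.69e-13 and 1.65e-13). For the groups under background this means at least 55.7-fold lower in PMEF and 59.5-fold lower in 3T3-L1 adipocytes, and the fitted fold in ES adipocytes was 41.9.

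H2-Eb1 encodes the beta chain of the second class II molecule, I-E. Its arrays read 6.11, 6.11 and 6.12 in ES, 6.04, 5.89 and 6.21 in PMEF and 6.17, 5.92 and 5.82 in 3T3-L1 adipocytes, against 10.06, 10.31 and 10.55 in eWAT. The cultures overlapped one another, and all lay above the receptor background level. The log2 difference from eWAT was -4.19 ± 0.12 in ES, -4.26 ± 0.12 in PMEF and -4.34 ± 0.12 in 3T3-L1 adipocytes (limma adjusted p of 2.23e-11, 1.15e-11 and 4.99e-12), or 18.3-fold, 19.2-fold and 20.2-fold lower. H2-Ea, the gene of the I-E alpha chain, was at 4.15 to 4.28 in ES, 4.03 to 4.36 in PMEF, 4.04 to 4.15 in 3T3-L1 adipocytes and 4.05 to 4.36 in eWAT, with no array above the background level, and it was not called against eWAT in any culture.

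Cd74 encodes the invariant chain, which escorts class II molecules to the endosome and blocks the groove until peptide is loaded. It was at 5.33, 5.14 and 5.50 in ES, at 4.92, 4.87 and 4.15 in PMEF and at 6.65, 6.83 and 6.87 in 3T3-L1 adipocytes, against 11.22, 11.55 and 11.65 in eWAT. The cultures did not overlap with each other, with 3T3-L1 adipocytes highest and PMEF adipocytes lowest and under the background level. The log2 difference from eWAT was -6.15 ± 0.18 in ES, -6.82 ± 0.18 in PMEF and -4.69 ± 0.18 in 3T3-L1 adipocytes (limma adjusted p of 1.97e-11, 4.49e-12 and 7.76e-11). That is a fitted 70.8-fold fall in ES adipocytes. Their arrays lay just above their own background levels (5.11, 5.04 and 5.12), so its true size cannot be read. The fall was at least 74.8-fold in PMEF adipocytes with the background level in place of their values, and a fitted 25.8-fold in 3T3-L1 adipocytes.

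H2-DMa encodes a chain of H2-DM, the endosomal catalyst that trades the invariant chain remnant for peptide. Here the values were 6.26, 6.33 and 6.33 in ES, 6.36, 6.31 and 6.0 in PMEF and 6.61, 7.0 and 6.60 in 3T3-L1 adipocytes, against 8.29, 8.71 and 8.80 in eWAT. The gap between culture and tissue was smaller than for the chains, and every array was above background. The log2 difference was -2.29 ± 0.14 in ES, -2.37 ± 0.14 in PMEF and -1.86 ± 0.14 in 3T3-L1 adipocytes (limma adjusted p of 1.82e-08, 1.06e-08 and 8.19e-08), or 4.88-fold, 5.18-fold and 3.63-fold.

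Ciita encodes the coactivator that class II promoters need. It was at 5.29, 5.10 and 5.29 in ES, at 5.43, 5.58 and 5.57 in PMEF and at 5.40, 5.22 and 5.31 in 3T3-L1 adipocytes, against 6.61, 6.41 and 6.50 in eWAT. Culture arrays lay just above the background level of their own array, so the true size of the difference cannot be read from them. The log2 difference from eWAT was -1.28 ± 0.08 in ES, -0.98 ± 0.08 in PMEF and -1.20 ± 0.08 in 3T3-L1 adipocytes (limma adjusted p of 2.87e-08, 3.72e-07 and 3.24e-08), the smallest of the 6 members in each culture.

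**Figure D2:**
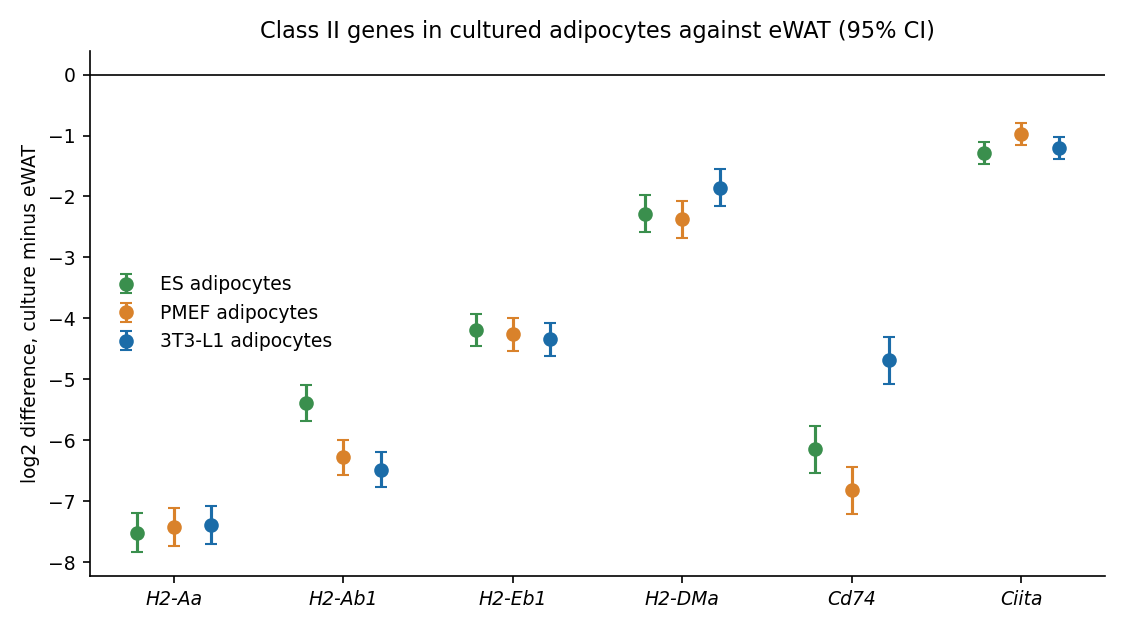
Log2 difference of each cultured adipocyte type from eWAT for the 6 class II genes, with 95% confidence intervals from the limma fit (n = 3 arrays per group). Every interval lies under 0, from -7.83 at its lowest for H2-Aa in ES adipocytes to -0.80 at its highest for Ciita in PMEF adipocytes.

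The arrays of eWAT were not alike in these genes. For 5 of the 6 members array 1 was the lowest of the 3, the exception being Ciita, whose lowest was array 2 (6.41). The spread within eWAT was 0.58 for H2-Ab1, 0.51 for H2-DMa, 0.50 for H2-Eb1, 0.43 for Cd74, 0.39 for H2-Aa and 0.21 for Ciita (highest minus lowest, log2). Array 1 was also lowest for 12 of 12 macrophage markers, 5 of 5 markers of white blood cells in general, 6 of 10 dendritic cell, 4 of 7 B cell and 4 of 7 T cell markers, and for 0 of 6 endothelial markers, beside 33.6% of all genes. The part of this in the class II values was not tested. Leaving eWAT array 1 out kept every member called in each culture.

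Between the cultures the members did not move as a group. ES adipocytes differed from PMEF adipocytes in 3 members, with H2-Ab1 and Cd74 higher and Ciita lower, while the percentages called over all genes were 23.6% higher and 19% lower. Against 3T3-L1 adipocytes, ES adipocytes had H2-Ab1 higher and Cd74 and H2-DMa lower, where 20.4% of all genes were higher and 23% lower. PMEF adipocytes had Cd74 and H2-DMa lower and Ciita higher than 3T3-L1 adipocytes, where 22.3% of all genes were higher and 27.8% lower. With 3 of 6 members called in each comparison, the counts are near these backgrounds.

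Cd74 showed the widest differences between cultures. Its log2 difference was 0.68 ± 0.18 for ES minus PMEF adipocytes (limma adjusted p = 0.00751), -1.46 ± 0.18 for ES minus 3T3-L1 (1.58e-05) and -2.13 ± 0.18 for PMEF minus 3T3-L1 (2.43e-07). PMEF array 3, at 4.15, stood below the other arrays of its group, and without it the difference of ES from PMEF adipocytes was 0.43 (limma adjusted p = 0.0233). The pan-leukocyte marker Ptprc was at 4.52 to 4.76 in ES, 4.60 to 5.0 in PMEF and 4.60 to 4.75 in 3T3-L1 adipocytes, not above background on any of these arrays and not called between any pair of cultures. Laptm5 and Cd53, on the same list of 5 genes, ran against the order of Cd74, with PMEF adipocytes highest. Laptm5 was at 4.82 to 4.95 in ES, 5.71 to 6.03 in PMEF and 5.10 to 5.35 in 3T3-L1 adipocytes, and Cd53 at 4.32 to 4.68, 6.01 to 6.17 and 5.14 to 5.21. Both rose in PMEF against 3T3-L1 adipocytes (0.66 and 0.92) and fell in ES against PMEF adipocytes. Of the 12 macrophage markers 1 rose and 6 fell in ES against PMEF adipocytes, 6 rose and 2 fell in PMEF against 3T3-L1 adipocytes, and none rose and 3 fell in ES against 3T3-L1 adipocytes. The lysosomal gene Cd68, on that list, ordered the cultures as Cd74 did, at 8.58 to 8.81 in ES, 7.05 to 7.19 in PMEF and 10.30 to 10.58 in 3T3-L1 adipocytes, and the part of these markers in the result was not tested.

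For H2-Ab1 the log2 difference was 0.89 ± 0.13 for ES minus PMEF (limma adjusted p = 9.61e-05) and 1.09 ± 0.13 for ES minus 3T3-L1 adipocytes (1.37e-05), and its arrays did not overlap in either. PMEF and 3T3-L1 adipocytes did not differ beyond their spread, at 0.20 with a 95% interval of -0.09 to 0.49. The partner chain gene H2-Aa was not called between any pair, with intervals of -0.41 to 0.22 for ES minus PMEF, -0.44 to 0.19 for ES minus 3T3-L1 and -0.35 to 0.29 for PMEF minus 3T3-L1, all among values under background. H2-Eb1 was not called either, with differences of 0.07, 0.14 and 0.08 in the same order.

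H2-DMa fell in ES and in PMEF adipocytes against 3T3-L1 adipocytes, with log2 differences of -0.43 ± 0.14 for ES minus 3T3-L1 (limma adjusted p = 0.0252) and -0.52 ± 0.14 for PMEF minus 3T3-L1 (0.00756). Its call for ES against 3T3-L1 was lost without 3T3-L1 array 2 (0.122), the highest of that group, or without any 1 of the ES arrays (0.071, 0.0529 and 0.0523). Ciita was lower in ES than in PMEF adipocytes by a log2 difference of -0.30 ± 0.08 (limma adjusted p = 0.00967), and that call was lost without ES array 2 (0.0514). The difference of PMEF from 3T3-L1 adipocytes in Ciita was 0.22 ± 0.08 (limma adjusted p = 0.0436) and was no longer called in 11 of 20 alternative analyses, with a value of -0.001 when each array was centred on its median.

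**Figure D3:**
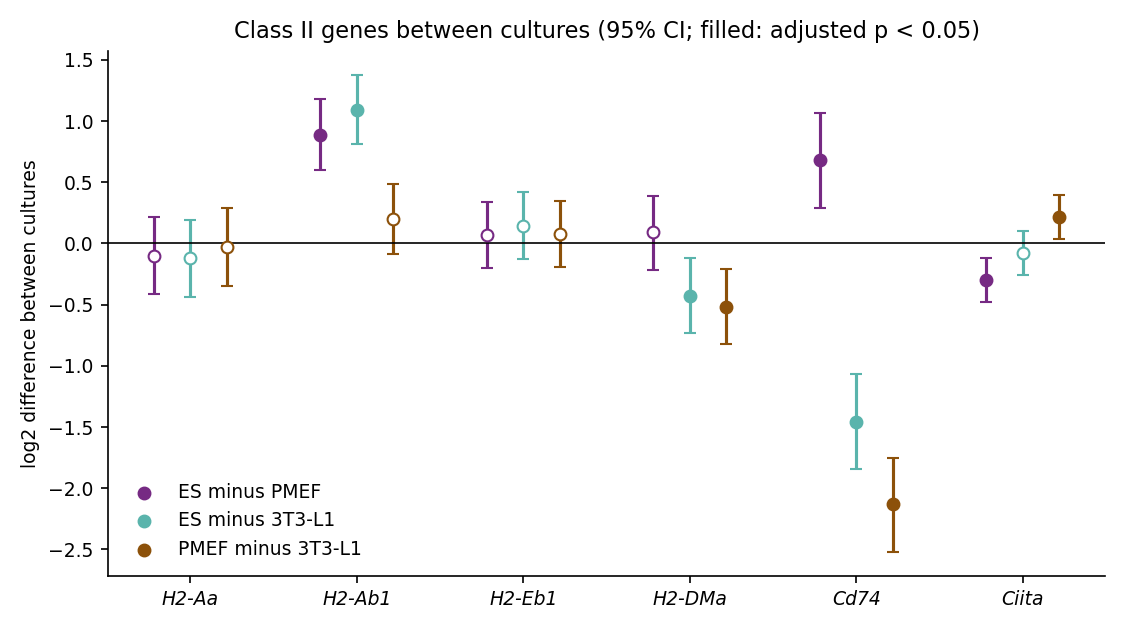
Log2 differences between pairs of cultures for the 6 class II genes, with 95% confidence intervals from the limma fit (n = 3 arrays per group); filled points have an adjusted p under 0.05. Cd74 reaches -2.13 for PMEF minus 3T3-L1 adipocytes and H2-Ab1 reaches 1.09 for ES minus 3T3-L1 adipocytes, while no H2-Aa or H2-Eb1 point is filled.

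By level, eWAT was highest for all 6 members, and the order of the cultures under it differed by gene. ES adipocytes came next for H2-Ab1, ahead of PMEF and 3T3-L1 adipocytes, which were neighbours not called apart. For Cd74 the order was 3T3-L1, ES and PMEF adipocytes, each called apart from the next. For H2-DMa 3T3-L1 adipocytes came first, and ES and PMEF adipocytes were not called apart. For Ciita the cultures have no firm order, since the difference of PMEF from 3T3-L1 adipocytes was lost in the alternatives given above.

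Genes that act around the class II molecule, in loading and peptide supply, had median differences nearer 0 than the members. The list of other loading and peptide supply genes held 14 genes, of which 12 were measured by probe sets of a single symbol, and H2-DMb1 and H2-DMb2 were left out because their probe set carries both symbols. Against eWAT, 6 of the 12 fell and none rose in ES adipocytes, 5 fell and 3 rose in PMEF adipocytes, and 6 fell and 2 rose in 3T3-L1 adipocytes, with median log2 differences of -0.23, -0.05 and -0.22. Ctss, the protease that trims the invariant chain in antigen-presenting cells, was the exception in size. It was at 4.75 to 4.89 in ES, 5.22 to 5.42 in PMEF and 4.73 to 4.77 in 3T3-L1 adipocytes, against 7.45 to 8.66 in eWAT. No ES or 3T3-L1 array was above background, so Ctss was at least 7.96-fold lower in ES and 7.63-fold lower in 3T3-L1 adipocytes, and in PMEF adipocytes, where 2 of 3 arrays were above it, the log2 difference was -2.78 ± 0.21.

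The broadly used lysosomal proteases stayed high in culture. Ctsb fell by 0.46, 0.42 and 0.97 on the log2 scale in ES, PMEF and 3T3-L1 adipocytes, to means of 11.60, 11.64 and 11.08 against 12.06 in eWAT. Ctsl, which trims the invariant chain in other cell types, rose by 0.58 in 3T3-L1 and 0.32 in PMEF adipocytes. Ifi30, the reductase that opens disulphide bonds of antigens in the lysosome, rose by 0.69 ± 0.14 in PMEF adipocytes and was at -0.01 ± 0.14 in ES and 0.17 ± 0.14 in 3T3-L1 adipocytes, neither called. Lgmn, an asparagine-cutting protease, rose by 0.51 in PMEF and fell by 0.78 in 3T3-L1 adipocytes. H2-Ob, a chain of the H2-DM inhibitor H2-DO, fell in all 3 cultures, by 0.83 in ES and 0.69 in 3T3-L1 adipocytes, and at least 1.66-fold in PMEF adipocytes, where it was not above background. H2-Oa and H2-Eb2 were not called in any of them, and H2-Eb2, whose promoter letters are printed above, was under the background level on all 12 arrays, at 4.39 to 4.60 in ES adipocytes and 4.47 to 4.99 in eWAT.

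The factors that bind class II promoters had median differences near 0, and all 7 were above background on every array. Of them 2 fell and 1 rose in ES, 4 fell and 1 rose in PMEF, and 3 fell and 2 rose in 3T3-L1 adipocytes, with median log2 differences of -0.05, -0.20 and -0.16. Rfx5, the DNA-binding subunit of the RFX complex, was at -0.05 ± 0.10 in ES and 0.07 ± 0.10 in PMEF adipocytes, neither called, and fell by 0.27 ± 0.10 in 3T3-L1 adipocytes. Its partner Rfxank fell by 0.47, 0.51 and 0.26 in ES, PMEF and 3T3-L1 adipocytes. Creb1, which binds beside the X box, fell by 0.76 in PMEF adipocytes, and the NF-Y subunit gene Nfyc rose in each culture, by 0.49, 0.32 and 0.30 in ES, PMEF and 3T3-L1 adipocytes.

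Interferon gamma is the classical inducer of Ciita outside the immune system. Of 9 measured genes of its pathway, 4 fell and 1 rose in ES, 5 fell and 1 rose in PMEF, and 4 fell and 2 rose in 3T3-L1 adipocytes (median log2 differences of -0.15, -0.41 and -0.09). Ifng itself was at 5.05 to 5.32 in ES, 5.19 to 5.34 in PMEF, 5.16 to 5.48 in 3T3-L1 adipocytes and 5.23 to 5.39 in eWAT, at about the background level, and was not called. The receptor chain gene Ifngr1 fell by 1.0, 0.93 and 1.25 in ES, PMEF and 3T3-L1 adipocytes, while that of the other chain, Ifngr2, rose by 0.38, 0.95 and 0.79. Among the transcription factors, Irf8, which is typical of myeloid cells, fell by 1.23, 1.39 and 1.41 and Irf2 by 0.74, 1.09 and 0.76. Irf1 was at -0.10 ± 0.07 in ES adipocytes, not called, and fell by 0.57 in PMEF and 0.42 in 3T3-L1 adipocytes.

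Class I presentation, which shows peptides made inside the cell and is used by nearly all cell types, had medians nearer 0 as well. Of 14 genes 12 were measured, since H2-K1 and H2-D1 have only probe sets of several symbols. Against eWAT 8 fell and 3 rose in ES, 8 fell and 3 rose in PMEF, and 8 fell and 2 rose in 3T3-L1 adipocytes, with median log2 differences of -0.65, -0.57 and -0.90. B2m, the shared light chain, fell by 0.63, 0.33 and 0.87 in ES, PMEF and 3T3-L1 adipocytes. The immunoproteasome gene Psmb8 fell in all 3, at -1.07 in ES, -1.54 in PMEF and -2.56 in 3T3-L1 adipocytes. The peptide transporter gene Tap1 was at -0.55 ± 0.14 in ES, called, at -0.35 ± 0.14 in PMEF, not called, and at -2.02 ± 0.14 in 3T3-L1 adipocytes, called.

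Nlrc5 encodes the relative of CIITA that drives class I genes. Its brightest probe set fell by 0.67 ± 0.11 in ES, 0.49 ± 0.11 in PMEF and 0.84 ± 0.11 in 3T3-L1 adipocytes. The array holds 19 probe sets for it, and in a fit of all probe sets all 19 fell in each culture, with log2 differences from -2.65 to -0.52 in ES, -2.33 to -0.34 in PMEF and -3.10 to -0.75 in 3T3-L1 adipocytes. The brightest probe set thus stood near the small end of that range.

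Genes of the costimulation list were mostly lower in culture. Their products act on T cells beside the class II complex, and those of Cd274 and Pdcd1lg2 can restrain T cells. Of 7 genes 6 fell in ES and 6 in 3T3-L1 adipocytes with none rising, and 4 fell and 2 rose in PMEF adipocytes (median log2 differences of -0.70, -1.15 and -0.27). Cd86, Cd40, Icosl and Cd274 fell in all 3 cultures, and Pdcd1lg2 was called in none. Cd86 was at 3.59 to 3.77 in ES, 3.95 to 4.19 in PMEF and 3.79 to 3.92 in 3T3-L1 adipocytes, under background, against 5.66 to 6.84 in eWAT. Cd80 rose by 1.96 ± 0.19 in PMEF adipocytes, at 8.28 to 8.60 against 5.96 to 6.94 in eWAT, and fell by 1.04 ± 0.19 in ES and 0.99 ± 0.19 in 3T3-L1 adipocytes. The adhesion gene Icam1 rose by 1.11 in PMEF adipocytes and fell by 0.70 in ES and 1.73 in 3T3-L1 adipocytes. In the same PMEF arrays no class II member rose against eWAT.

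**Figure D4:**
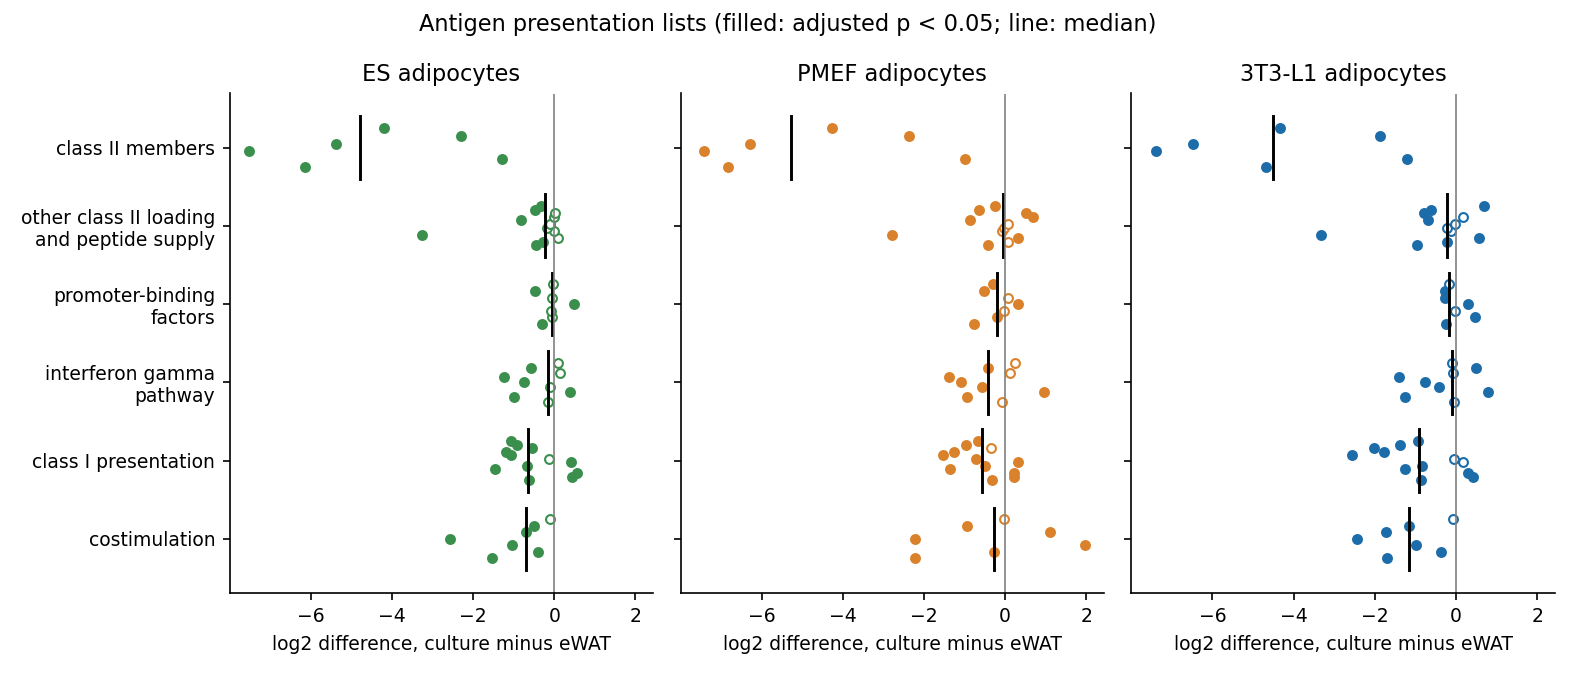
Log2 difference from eWAT for the genes of 6 antigen presentation lists in ES, PMEF and 3T3-L1 adipocytes; each point is a gene, filled where the adjusted p is under 0.05, and the black line is the list's median. The class II members have medians of -4.79, -5.27 and -4.51, while the medians of the other lists lie between -1.15 and -0.05.

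Markers of several cell types of whole tissue moved with the members, those of vessels as well as those of white blood cells. The 6 endothelial markers all fell in each culture, with medians of -4.38 in ES, -4.34 in PMEF and -4.09 in 3T3-L1 adipocytes, and a summed linear intensity of 243 to 266, 259 to 267 and 190 to 216, against 4796 to 6119 in eWAT. On the general white blood cell list all 5 genes fell in each culture, with medians of -3.82 in ES, -3.58 in PMEF and -3.72 in 3T3-L1 adipocytes. Ptprc, the marker CD45, was at 8.02, 8.37 and 8.86 in eWAT against the background values of the cultures given above. The summed linear intensity of the list was 130 to 138 in ES, 211 to 224 in PMEF and 156 to 163 in 3T3-L1 adipocytes, against 1626 to 3049 in eWAT. The same sum over the 6 class II members was 283 to 298 in ES, 251 to 264 in PMEF and 352 to 373 in 3T3-L1 adipocytes, against 7736 to 10655 in eWAT.

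Macrophage markers fell for 12 of 12 genes in ES, 12 of 12 in PMEF and 10 of 12 in 3T3-L1 adipocytes, where Cd68 rose and Mertk was not called. Adgre1, a surface receptor widely used to mark mouse macrophages, was at 3.87 to 4.23 in ES, 4.71 to 5.13 in PMEF and 4.06 to 4.22 in 3T3-L1 adipocytes, against 8.78 to 10.24 in eWAT. The summed intensity of the list was 782 to 832 in ES, 1026 to 1179 in PMEF and 1933 to 2152 in 3T3-L1 adipocytes, against 6926 to 13384 in eWAT. In 3T3-L1 adipocytes Cd68, at 10.30 to 10.58, was the largest term of the sum. By gene, 6 of the 12 markers rose and 2 fell in PMEF against 3T3-L1 adipocytes. In PMEF adipocytes 8 of the 12 macrophage markers were above background on all 3 arrays, beside 3 in ES and 4 in 3T3-L1 adipocytes. Among the 8 was the lysozyme gene Lyz2, at 7.82 to 8.41. Of the general white blood cell markers, Laptm5 and Cd53 were above background on all 3 PMEF arrays, Coro1a on 1, and Ptprc and Cd52 on none.

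All 10 dendritic cell markers fell in each culture, with medians of -0.76 in ES, -0.68 in PMEF and -0.85 in 3T3-L1 adipocytes. Cd209a and Clec10a, both lectins of dendritic cells and macrophages, were not above background on any culture array. Cd209a was at least 17.3-fold lower in ES, 15.5-fold lower in PMEF and 16.6-fold lower in 3T3-L1 adipocytes, and Clec10a at least 16.6-fold, 14.9-fold and 15.9-fold lower. Clec9a, a marker of cross-presenting dendritic cells, was at 3.36 to 3.68 in ES, 3.58 to 3.83 in PMEF and 3.62 to 3.80 in 3T3-L1 adipocytes, against 5.71 to 5.81 in eWAT. The summed intensity of the list was 319 to 343 in ES, 320 to 379 in PMEF and 335 to 352 in 3T3-L1 adipocytes, against 1206 to 2046 in eWAT.

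B cell markers gave little signal in tissue. Of 7 measured genes 5 fell in ES, 2 in PMEF and 4 in 3T3-L1 adipocytes, but 5 of the 7, among them Ms4a1 (3.51 to 3.94) and Cd79a (4.01 to 4.45), were not above the background level on any eWAT array. The summed intensity of the list was 161 to 177 in ES, 189 to 204 in PMEF and 175 to 185 in 3T3-L1 adipocytes, against 201 to 210 in eWAT. Of 7 T cell markers 6 fell in ES and 4 each in PMEF and 3T3-L1 adipocytes, with a summed intensity of 198 to 212, 213 to 260 and 210 to 233, against 336 to 380 in eWAT. The part of these cells in the class II result was not tested.

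**Figure D5:**
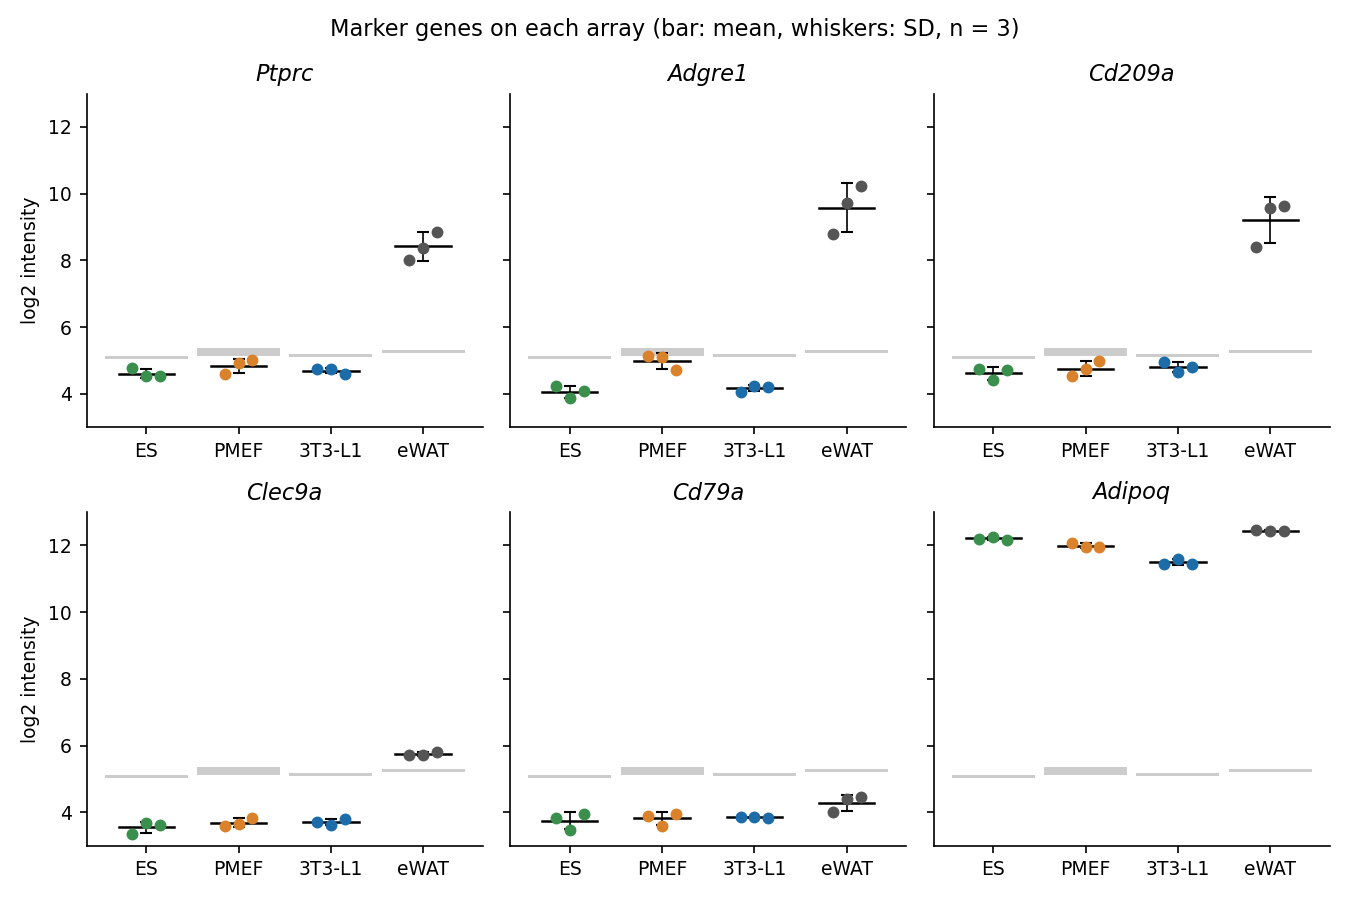
Log2 intensity of marker genes on each array, with the mean and SD of 3 arrays per group and the range of the receptor background level (grey band). The markers are of white blood cells (Ptprc), macrophages (Adgre1), dendritic cells and macrophages (Cd209a), dendritic cells (Clec9a), B cells (Cd79a) and fat cells (Adipoq). Ptprc lies at 8.02 to 8.86 in eWAT and under the band in the cultures, Cd79a lies under the band in all groups, and Adipoq lies between 11.44 and 12.47 throughout.

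The genes nearest to each member in profile were named by the smallest root mean square difference of mean-centred log2 values over the 12 arrays. Since the arrays fall into tissue and culture, this measure mostly finds genes with an equal gap between them. The nearest to H2-Eb1 were Entpd1 (0.11), Csf2rb (0.18), Esam (0.20), Fcrls (0.21) and Csf1r (0.21), and those nearest to Ciita were Was (0.10), Cd3e (0.11), Lnx1 (0.12), Cd300a (0.12) and Cbfa2t3 (0.12). For H2-DMa they were Scarna13 (0.19), Strip2 (0.21), Arhgap26 (0.21), Naip5 (0.22) and Naip6 (0.22). The other members had no gene so close, with Retnla at 0.43 for H2-Aa and at 0.72 for Cd74, and Adgrl4 and Cdh5 at 0.43 for H2-Ab1.

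By type, the nearest genes included both blood cell and vessel genes. Csf1r, the receptor of the macrophage growth factor, was at -4.34 in ES, -3.97 in PMEF and -4.45 in 3T3-L1 adipocytes (log2 difference from eWAT, with no 3T3-L1 array above background), beside -4.19, -4.26 and -4.34 for H2-Eb1. Cdh5, the cadherin of vessel junctions, was at -4.44, -5.48 and -5.94 in the same order, beside -5.39, -6.28 and -6.48 for H2-Ab1. Cd3e, a chain of the T cell receptor complex, was at -1.07, -0.91 and -1.02, beside -1.28, -0.98 and -1.20 for Ciita. Cdh5 was higher in ES than in PMEF adipocytes (1.04 ± 0.11) and than in 3T3-L1 adipocytes (1.49 ± 0.11). The 6 endothelial markers, Cdh5 among them, were mixed between cultures. Of them 1 rose and 2 fell in ES against PMEF adipocytes. Tek was at -0.78 there, and Emcn at -0.75 with no array of either group above background. Against 3T3-L1 adipocytes 2 rose and 1 fell in ES adipocytes. Tek was higher there, at 5.55 to 5.65 against 5.10 to 5.24, and Pecam1 was at -0.78, with 1 of 3 ES arrays above background. The part of vessel cells in the H2-Ab1 values was not tested.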

How the data were processed

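Per the labels, TRIzol was used for extraction, and 300 ng of RNA was made into biotin-labelled cDNA (Ambion WT Expression) for Affymetrix arrays. The deposited values of 35556 probe sets are on the log2 scale and were used as deposited. How they were normalized is not given in the sources used here, and the array medians lie close together without being equal. The log base was read from the range of values (1.11 to 13.48), since natural logs would pass the 16-bit limit of 65535. Probe sets with exactly 1 symbol in the platform annotation (21789) were used, those with several (1621) or none (12146) were not. The brightest probe set by mean stood for a gene, and each class II member had 1.

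All 19938 genes and 12 arrays entered a model with the 4 groups in limma 3.58.1 in R 4.3.3 (8 residual and 4.88 prior degrees of freedom), without a filter on dim genes. The number of arrays limits the precision. The members, gene lists and markers were chosen with earlier results of these data known. Named genes are the members, list genes (the most changed and a fixed set of lead genes) and the 5 genes nearest to each member; list genes outside that rule were named after their values were seen. Alternatives were quantile normalization, median centring, leaving out the dimmest 33.3% of genes, averaging probe sets, fitting only the groups compared, a replicate block, a trended robust variance, array weights, and leaving out each array.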

Additional observations from a re-analysis of the deposited data

How the results depend on the processing

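Against eWAT, all 6 class II members stayed called lower in each culture in all 20 alternatives, 360 results in all. Counts of genes called stayed within 1.5 times, at 8662 to 10222 for ES (9911), 8077 to 9831 for PMEF (9225) and 9387 to 13596 for 3T3-L1 adipocytes (10628). With the replicate block they were 9739, 9009 and 10519, and it changed no member's call in any comparison. The labels name no pairing of samples. Deviations of same-numbered arrays had correlations of -0.14 to 0.11, which shows no strong shared effect but cannot exclude a pairing. Between cultures, 2 to 4 members were called in place of 3. Centring arrays on their medians moved the median of all genes by 0.21 for 3T3-L1 adipocytes against eWAT, -0.22 for PMEF and -0.20 for ES against 3T3-L1 adipocytes. The share of called genes that were higher then was 77.1%, 23.6% and 21.7%, beside 57.8%, 44.6% and 47.1%. Under it, differences from 3T3-L1 adipocytes turned to -0.02 for H2-Ab1, -0.14 for H2-Eb1 and -0.001 for Ciita in PMEF and to -0.06 for H2-Eb1 in ES adipocytes, and Ciita became called lower in ES adipocytes (-0.29, adjusted p = 0.0102). Ciita in PMEF against 3T3-L1 adipocytes also lost its call with quantile normalization (0.102), with the 2 groups only (0.0503) and with the trended robust variance (0.067), and without any 1 of 7 arrays (0.0524 to 0.16). Leaving out single arrays gave ranges through 0 for results not called, from -0.16 to 0.11 for H2-Aa and -0.004 to 0.18 for H2-Eb1 (PMEF minus 3T3-L1), and from -0.24 to 0.03 for H2-Aa, -0.01 to 0.15 for H2-Eb1 and -0.03 to 0.15 for H2-DMa (ES minus PMEF). The cause of these changes was not tested. Values near background limit the size of differences for H2-Aa, H2-Ab1, Cd74 and Ciita.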

Other observations

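The 3 eWAT arrays differed in cell type markers in a way that ran in opposite directions for different lists. Array 1 had the lowest summed linear intensity of macrophage markers (6926, against 10786 in array 2 and 13384 in array 3), of dendritic cell markers (1206, against 1828 and 2046) and of general white blood cell markers (1626, against 2497 and 3049). Its sums were the highest of endothelial markers (6119, against 5127 and 4796) and of adipocyte markers (34172, against 32248 and 31982). Bright genes weigh most in such sums. By gene, array 1 was lowest for 6 of 10 dendritic cell markers and array 2 for 4, and Siglech was highest in array 1 (6.38, against 5.59 and 5.63). Cd209a (8.41, 9.57 and 9.62) and Clec10a (8.63, 9.21 and 9.60) were the brightest of that list. The 8 adipocyte markers had no common order, with 2 lowest in array 1, 3 in array 2 and 3 in array 3. Lep was at 11.14, 10.23 and 9.96, and Pparg at 11.13, 11.28 and 11.30. The sum over the 6 class II members was 7736 in array 1, 9656 in array 2 and 10655 in array 3. Of the 12 class I genes 10 and of the 9 interferon gamma pathway genes 8 were lowest in array 1, against 1 of the 7 class II promoter-binding factors. These are values of 3 arrays, and no test was made of them.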
